A study of Mus musculus with 6 samples.

Results

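Integrins are the cell's receptors for the extracellular matrix, and laminins are major proteins of the basement membrane that many of them bind. All 37 mouse genes that the deposited mRNA table lists under an integrin alpha, integrin beta or laminin chain symbol are described here, of 22298 genes in that table. They were chosen by symbol alone and comprise 18 integrin alpha, 8 integrin beta, 5 laminin alpha, 3 laminin beta and 3 laminin gamma genes. The libraries are RNA sequencing of GC-1spg cells, an immortalized mouse line labelled as spermatogonia, in 2 groups of 3. All cells grew in DMEM with 10% FBS, were transfected with siRNA at 60% density and were collected 48 h later. The si-METTL3 group received an siRNA against Mettl3, the catalytic subunit of the complex that writes N6-methyladenosine (m6A) on RNA, and the si-NC group a control siRNA. The labels tag the si-NC libraries as untreated although their protocol gives them the control siRNA, and no library is of untransfected cells. All libraries come from 1 cell line, and nothing in the labels says whether replicates were separate cultures, so the spread behind each p-value is that of these libraries only and may be technical. The study asked how RNA levels differ between spermatogonia with different m6A methylation.

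An integrin is a heterodimer of an alpha and a beta subunit, and the pair decides what the receptor binds. Itgb1 joins many alphas to make receptors for laminin (with Itga3, Itga6 or Itga7), collagen (Itga1, Itga2, Itga10, Itga11) and fibronectin (Itga5), whereas Itga6 with Itgb4 is the laminin receptor of hemidesmosomes, the junctions that tie keratin filaments to the basement membrane. A laminin is a trimer of an alpha, a beta and a gamma chain, and in the testis the basement membrane under the seminiferous epithelium holds the spermatogonia. Itga6 and Itgb1 are widely used surface markers of mouse spermatogonial stem cells.

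The siRNA sequence is shown because it tells which transcripts could pair with its strands. The same string stands in the labels for the METTL3 and the control siRNA, and the control's true sequence cannot be read from them. The string lies in the coding sequence of Mettl3 on chromosome 14 in the GENCODE M21 annotation (GRCm38). Capitals in the reverse complement mark its seed, bases 2 to 8.
siRNA as printed, sense to Mettl3: gctaccgtatgggacatta
its reverse complement: tAATGTCCcatacggtagc

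The seed site of that reverse complement, GGACATT, is in the annotated 3′ UTR of 3 of the 32 tested integrin and laminin genes, and of 9.88% of the 12752 tested genes with a 3′ UTR. The sites are shown with 10 flanking bases on each side and the match in capitals, since they are the only such matches among the tested members.
Itgav, chromosome 2, base 2305 of the 3′ UTR: ttgatccagaGGACATTtgacacatgt
Itgb3, chromosome 11, base 59 of the 3′ UTR: tgtttacagaGGACATTtgtgtgtgtg
Itgb6, chromosome 2, base 1152 of the 3′ UTR: cctacatgtaGGACATTcctatcccgt

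None of these 3 genes passed the test below. The log2 fold change was 0.54 for Itgav (adjusted p = 0.104), 0.55 for Itgb3 (0.723) and -0.062 for Itgb6 (0.943), all from edgeR. The seed site of the printed strand, ACGGTAG, is in no tested member and in 1.59% of the tested genes. Matches were sought on the mRNA strand only and are a description of the sequence, not of binding.

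The mRNA table held 22146057 to 37698956 counts per library. Mettl3 counts were 606, 578 and 683 under si-NC and 142, 134 and 136 under si-METTL3. The log2 fold change was -1.79 (SE 0.14, adjusted p = 0.000579, edgeR), the direction the labels give. Of 12 germ line and spermatogonial markers, 8 were under 10 counts in every library and Sall4, Nanos2 and Sohlh1 were at 0 in all, while the neuronal and spermatogonial enzyme Uchl1 was at 35.1 to 41.3 CPM (counts scaled to library size). Gfra1 was the only marker of that list that passed (log2 fold change 0.65, adjusted p = 0.0389, edgeR). Of 5 Sertoli cell markers, Wt1 was at 160 to 267 CPM, Gata4 at 28.9 to 43.8, Sox9 at 18.1 to 25.9 and Amh at 6.33 to 7.96. Rhox5 had at most 6 counts. In that list 4 were tested and 2 passed, against 18.9% of all tested genes (8.67% higher and 10.2% lower). Wt1 rose (log2 fold change 0.61, adjusted p = 0.00277, edgeR) and Gata4 fell (-0.41, 0.0299). Genes of other tissues were present in 4 libraries. The summed CPM of 13 lung epithelium genes was 3.79 and 2.26 in si-NC replicates 1 and 2 but 66.1 in si-NC replicate 3 and 67.7 to 100.2 under si-METTL3. The same libraries were high for 5 blood genes, at 0.456 and 0.796 against 12.1 to 18.8 CPM. For 12 macrophage and leukocyte genes the sum did not exceed 15.8 CPM in those 2 si-NC libraries, and it was 33.9 to 43.4 in the other libraries. Lyz2 added most to that difference, at 0.342 and 0.265 against 12.3 to 18.5 CPM. Cd74 was at 0.741 and 0.531 against 2.64 to 3.32 CPM. Over all 6 libraries Cd14 was at 8.86 to 13.6 and Cd68 at 4.34 to 5.70 CPM. Adgre1, Cd52, Tyrobp and Fcer1g had at most 6 counts. The 8 endothelial genes summed to 12.8 and 14.1 against 20.2 to 23.6 CPM. Libraries also differed by gene length. For each library, the deviation of log2 level from the gene's mean over the 6 libraries was fitted on log2 length. The slope was -0.13, 0.027 and -0.14 per doubling under si-NC and 0.048, 0.088 and 0.11 under si-METTL3. These slopes are relative to the other libraries.

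In terms of level, a few members made up nearly all of the integrin and laminin RNA. On the deposited FPKM scale, which is per length, 12 of the 37 genes averaged 10 or more over the 6 libraries and 21 averaged under 1. Itga3 led the integrins at 243 FPKM, followed by its partner Itgb1 at 79.6. Itgb7 (43.8), Itga6 (29.0), Itga5 (27.7), Itga7 (24.4), Itgb5 (23.8) and Itgav (17.9) came next. The levels of Itga6, Itga5 and Itga7 do not stand apart from one another across the 6 libraries. Lama5 led the laminins at 161 FPKM, with Lamc1 at 43.7, Lamb1 at 29.9 and Lamb2 at 27.7. These are the chains of laminin-511 and laminin-521 (named by their alpha, beta and gamma chain numbers).

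Some subunits were present while the partners they are known to join had few counts. The lymphocyte receptor subunit Itgb7 was at 43.8 FPKM, whereas its known partner Itga4 had at most 8 counts in any library and its other partner Itgae had 7 to 27. The leukocyte subunit Itgb2 was at 5.75 FPKM. Of its partners, Itgad had at most 2 counts, Itgal at most 20, Itgam 9 to 23 and Itgax 4 to 17. Exons of Itgam overlap those of the coding gene Gm49368 on the same strand by 3450 bases. How reads shared between genes were counted is not given, so the Itgam counts may be too low. The platelet alpha subunit Itga2b was at 3.12 FPKM (147 to 230 counts), while the other 5 platelet markers had at most 3 counts (Pf4, Gp9 and Treml1), 11 (Ppbp) or 16 (Gp1bb, in si-NC replicate 2 alone). Its partner Itgb3 had 16 to 64 counts in 5 libraries and 0 in si-NC replicate 3.

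**Figure D1:**
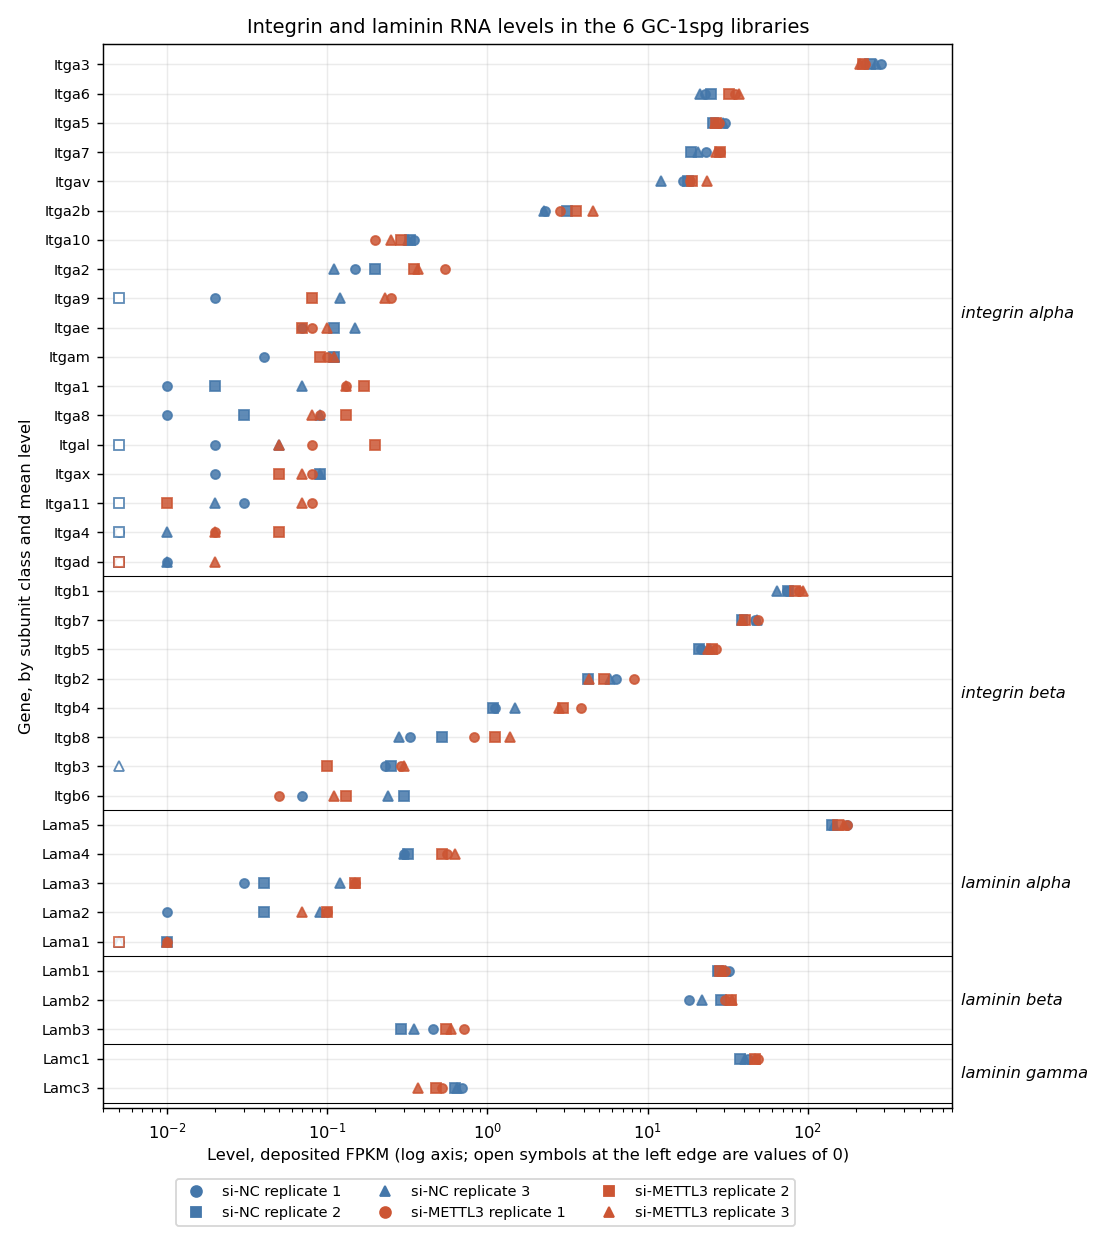
FPKM of the integrin and laminin genes reported here in each of the 6 libraries on a log axis, grouped by subunit class and ordered by mean level, with si-NC in blue and si-METTL3 in orange. Itga3 and Lama5 lie highest in their classes, at means of 243 and 161 FPKM, and 21 genes average under 1.

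Between the groups, 9 of the 32 tested members passed at an adjusted p under 0.05, against 18.9% of all 13082 genes tested (edgeR quasi-likelihood test, Benjamini-Hochberg over all genes). The share among the members was 28.1%. Higher in si-METTL3 were 8 of them, Itgb8, Itgb4, Itga2, Lama4, Lamb3, Itga6, Itga7 and Lamb2, where 8.67% of all tested genes were higher. Lower was Itga3 alone, where 10.2% of all tested genes were lower. The median log2 fold change over the 32 tested members was 0.30, and over all tested genes 0.030. By class, the test passed for 4 of 14 integrin alphas, 2 of 8 integrin betas, 1 of 4 laminin alphas, 2 of 3 laminin betas and 0 of 3 laminin gammas (2 of these 3 had an unadjusted p under 0.05). The CPM ranges of the groups did not overlap for 16 of the 32 members, against 41.5% of all tested genes. Each library shapes the count. Leaving out 1 library at a time gave 2 to 14 called members, with Itga6 and Itgb4 called in all 6 fits. The count was 14 without si-NC replicate 2, when 36.8% of all tested genes were called, and 7 without si-NC replicate 3, when 12.2% were. It was 3 without si-NC replicate 1 (5.66% of all tested genes), and 4, 3 and 2 without si-METTL3 replicates 1 (10.3%), 2 (5.15%) and 3 (4.99%).

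**Figure D2:**
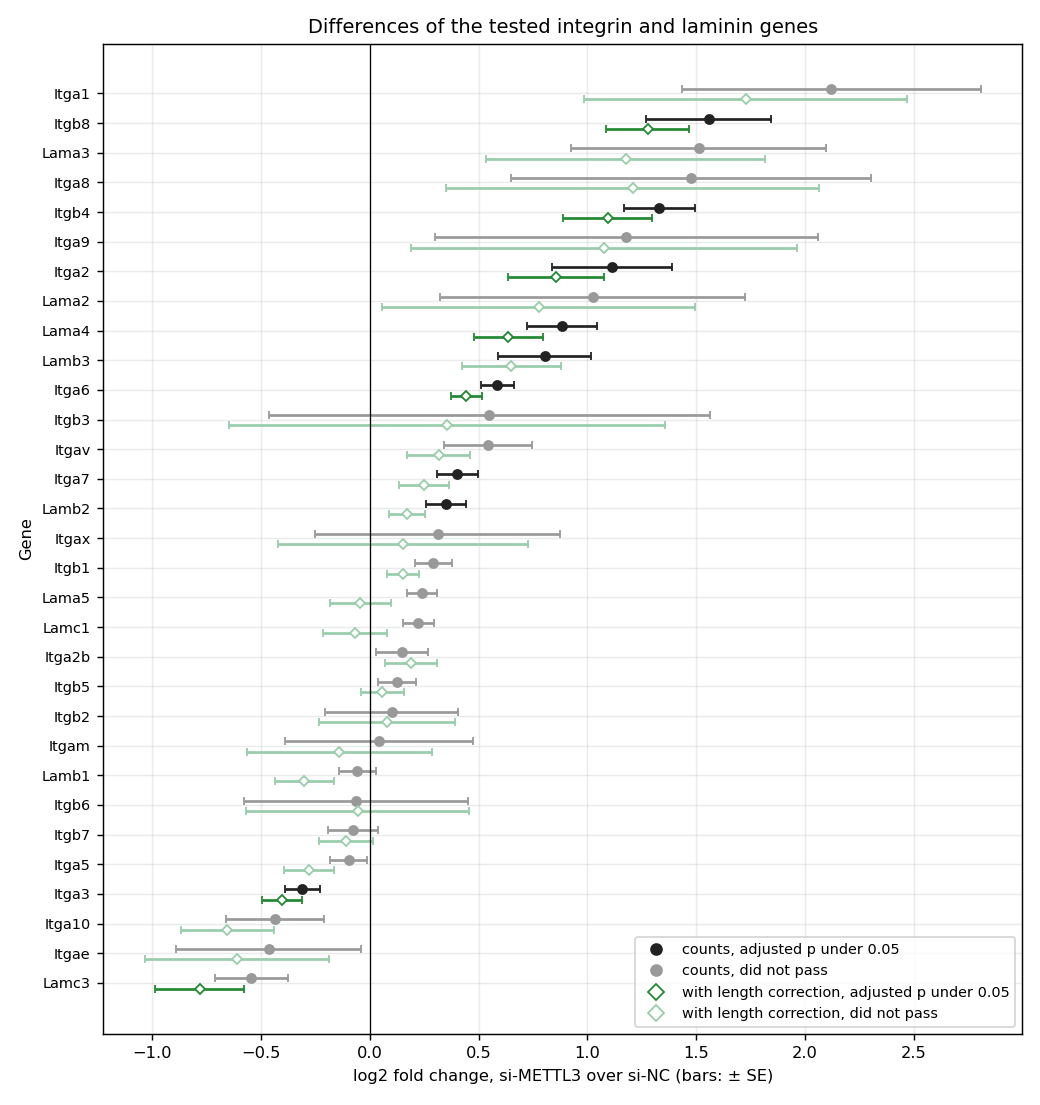
Log2 fold change of si-METTL3 over si-NC with its SE for the tested members reported here, from edgeR over all 6 libraries, as circles for the counts (black where the gene passed) and green diamonds for the length correction (dark where it passed). Of the 9 that passed on counts, 8 lie above 0, from 0.35 (Lamb2) to 1.56 (Itgb8), and Itga3 lies at -0.31, and the diamonds of most genes lie to the left of the circles.

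Among the receptors for laminin, Itga6 and its hemidesmosome partner Itgb4 rose and Itga3 fell. Itga6 (chr2:71745616-71858416 on GRCm38, plus strand) was at 109, 111 and 103 CPM under si-NC and 161, 150.4 and 173 under si-METTL3. Every si-METTL3 library was above every si-NC library. The means were 108 ± 4.05 and 161 ± 11.1 CPM (SD, n = 3 each), a log2 fold change of 0.59 (SE 0.076, adjusted p = 0.00449, edgeR). It passed without any 1 of the 6 libraries, with adjusted p up to 0.0307.

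Itgb4 (chr11:115974709-116008412, plus strand) was at 7.78, 6.27 and 9.75 CPM under si-NC and 20.3, 20.5 and 19.2 under si-METTL3. The si-METTL3 libraries were close together and all above the highest si-NC library. The mean went from 7.93 ± 1.75 to 19.996 ± 0.669 CPM (SD, n = 3 each), with a log2 fold change of 1.33 (SE 0.16, adjusted p = 0.00365, edgeR). It too passed without any 1 library, with adjusted p up to 0.0263. Its exons overlap those of the noncoding gene B230344G16Rik on the opposite strand by 537 bases, and no source used here says whether counting used the strand.

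Itga3 (chr11:95044474-95076801, minus strand), which pairs with Itgb1, was the most abundant integrin and the only member called lower over all 6 libraries. It was at 1087, 923 and 1063 CPM under si-NC and 852, 803 and 824 under si-METTL3. All 3 si-METTL3 libraries were lower, with si-NC replicate 2 the nearest of the controls. The means were 1024 ± 88.7 and 826 ± 24.5 CPM (SD, n = 3 each) and the log2 fold change was -0.31 (SE 0.080, adjusted p = 0.0368, edgeR). It passed without si-NC replicate 2 (adjusted p = 0.00313) and missed the threshold without any other single library, with adjusted p from 0.0687 to 0.144.

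Itga7 (chr10:128933818-128958282, plus strand), a laminin receptor best known in muscle, was at 114, 90.4 and 103 CPM under si-NC and 136, 138 and 132 under si-METTL3. The groups did not overlap. The means were 102 ± 11.9 and 135 ± 3.17 CPM (SD, n = 3 each), with a log2 fold change of 0.40 (SE 0.095, adjusted p = 0.0283, edgeR). The call held without si-NC replicate 1 (0.0445) or si-NC replicate 2 (0.0153) and was lost without si-NC replicate 3 (0.0813) or si-METTL3 replicate 1 (0.0908), 2 (0.11) or 3 (0.0915).

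As shares of the summed FPKM of all 18 alphas, Itga3 made up 75.0%, 72.8% and 75.3% under si-NC and 66.7%, 66.5% and 64.0% under si-METTL3. Itga6 made up 5.98%, 7.44% and 6.05% against 10.2%, 9.71% and 11.1%. Itga7 made up 6.05%, 5.57% and 5.86% against 8.28%, 8.56% and 8.05%. For each of the 3 genes the groups did not overlap, and Itga3 remained the largest share in every library. The ratio of Itga6 to Itga3 FPKM was 0.0797, 0.102 and 0.0803 against 0.153, 0.146 and 0.174. An exact permutation test of 3 against 3 libraries cannot go below p = 0.1, so these shares carry no test of their own. The summed FPKM of Itga3, Itga6 and Itga7 was 334, 288 and 307 against 293, 282 and 277, and there the groups overlapped. The ratio of Itgb4 to Itga6 was 0.0484, 0.0433 and 0.0699 under si-NC and 0.109, 0.0923 and 0.0757 under si-METTL3, so Itgb4 RNA stayed well under that of Itga6.

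**Figure D3:**
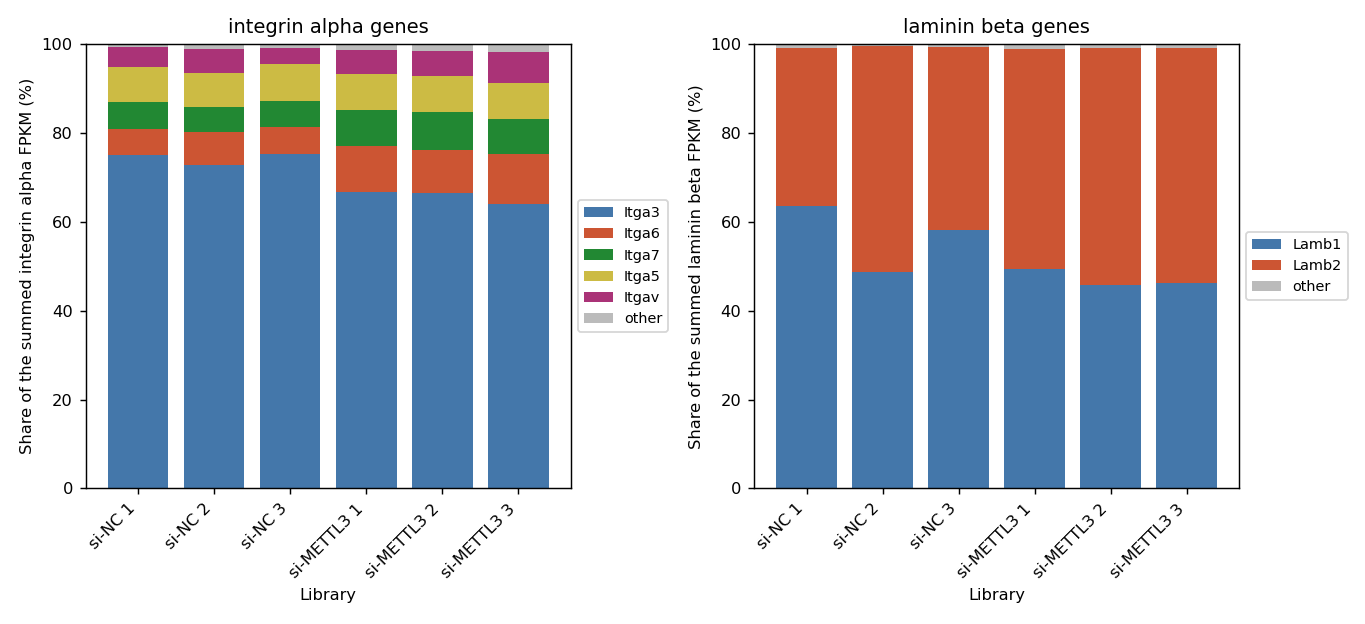
Stacked percentages of the summed FPKM of the 18 integrin alpha genes (left) and of the 3 laminin beta genes (right) in each of the 6 libraries. The Itga3 share lies at 72.8% to 75.3% in si-NC and 64.0% to 66.7% in si-METTL3, while the Lamb2 share of si-NC replicate 2 (50.9%) lies among the si-METTL3 libraries (49.4% to 53.4%).

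A list of 7 epithelial markers was read beside Itgb4 and Itga6. Krt14, a keratin of basal epithelium, was at 135, 97.0 and 131 CPM under si-NC and 297, 309 and 301 under si-METTL3, with a log2 fold change of 1.32 (adjusted p = 0.00148, edgeR). The other epithelial markers that could be tested did not pass, among them Krt18 (0.27, 0.107), the most abundant, and Krt8 (0.80, 0.0538). Krt5, the usual partner keratin of Krt14, had at most 2 counts in any library and Epcam at most 6. Whether Krt14 and Itgb4 are in the same cells was not tested, and in bulk RNA a change in the number of cells of a type and one in RNA per cell cannot be told apart.

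Beyond the laminin receptors, Itgb8 and Itga2 rose. Itgb8 (chr12:119158022-119238802, minus strand), which pairs with Itgav and activates latent TGF-beta, was at 3.36, 5.24 and 2.89 CPM under si-NC and 8.17, 11.4 and 14.2 under si-METTL3. The si-METTL3 libraries were all higher but spread widely. The means were 3.83 ± 1.24 and 11.3 ± 3.04 CPM (SD, n = 3 each), the largest log2 fold change among the called members at 1.56 (SE 0.29, adjusted p = 0.0134, edgeR). It missed the threshold when si-NC replicate 1 (0.0621) or si-METTL3 replicate 2 (0.0592) or 3 (0.0562) was left out. Its partner Itgav was at 92.1, 129 and 77.1 CPM under si-NC and 128, 134 and 173 under si-METTL3, and the groups overlapped. Of the TGF-beta genes, Tgfb2 (log2 fold change 0.84, adjusted p = 0.00715, edgeR) and Tgfb3 (0.76, 0.00209) rose, and Tgfb1 was at 0.31 (0.136). Tgfb2 and Tgfb3 passed without any 1 library. Whether Itgb8 acts on the product of any of these TGF-beta genes was not tested.

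Itga2 (chr13:114833081-114932100, minus strand), a collagen receptor subunit, was at 1.34, 1.69 and 0.926 CPM under si-NC and 2.38, 2.99 and 3.20 under si-METTL3. The groups did not overlap. The log2 fold change was 1.11 (SE 0.28, adjusted p = 0.0325, edgeR) between means of 1.32 ± 0.383 and 2.86 ± 0.428 CPM (SD, n = 3 each). It passed without si-NC replicate 2 (0.0158) and with no other single library left out, with adjusted p from 0.0602 to 0.123. Its mean level was 0.287 FPKM, far under the 243 of Itga3.

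The laminin chains that rose were Lama4, Lamb3 and Lamb2. Lama4 (chr10:38965515-39110188, plus strand), an alpha chain of vessel and mesenchymal basement membranes, was at 2.22, 2.32 and 2.23 CPM under si-NC and 4.07, 3.79 and 4.67 under si-METTL3. The groups did not overlap, and the 3 si-NC libraries were close together. The means were 2.26 ± 0.0540 and 4.17 ± 0.448 CPM (SD, n = 3 each), with a log2 fold change of 0.88 (SE 0.16, adjusted p = 0.0129, edgeR). The threshold was missed when si-NC replicate 1 (0.058) or si-METTL3 replicate 3 (0.0644) was left out. Of 8 smooth muscle and fibroblast markers, 7 were tested and 3 passed, all higher, where 18.9% of all tested genes passed and 8.67% were higher. They were Pdgfra (log2 fold change 0.78, adjusted p = 0.00184, edgeR), Acta2 (0.70, 0.0235) and Pdgfrb (1.68, 0.0332, at 8 to 53 counts). Dcn (0.51, 0.138), Myh11 (0.93, 0.170), Cnn1 (0.51, 0.358) and Tagln (-0.17, 0.752) did not pass, and Lum had at most 1 count. The endothelial markers did not pass either. The part of such cells in the Lama4 value was not tested.

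Lamb3 (chr1:193207699-193343878, plus strand), the beta chain of the laminin-332 that binds the Itga6 and Itgb4 receptor in skin, was at 1.91, 1.39 and 1.85 CPM under si-NC and 3.41, 2.67 and 2.92 under si-METTL3. All si-METTL3 libraries were higher. The means were 1.72 ± 0.283 and 3.00 ± 0.375 CPM (SD, n = 3 each), the log2 fold change was 0.80 (SE 0.21) and the adjusted p of 0.0394 (edgeR) was the weakest among the called members. It passed without si-NC replicate 2 (0.0482) and missed the threshold without any other single library, at 0.075 to 0.127. The epithelial alpha chain Lama3, a partner of Lamb3 in laminin-332, was at 1.51 (adjusted p = 0.113, edgeR) and did not pass.

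Lamb2 (chr9:108479736-108490530, plus strand), the beta chain of laminin-521, was at 118, 147 and 138 CPM under si-NC and 171, 166 and 178 under si-METTL3. The lowest si-METTL3 library was above the highest control, si-NC replicate 2. The means were 134 ± 14.7 and 172 ± 5.72 CPM (SD, n = 3 each), with a log2 fold change of 0.35 (SE 0.092, adjusted p = 0.0391, edgeR). It passed without si-NC replicate 2 (0.0105) and missed the threshold without any other single library, at 0.0879 to 0.145. Lamb2 made up 35.6%, 50.9% and 41.1% of the beta-chain FPKM under si-NC and 49.4%, 53.4% and 52.8% under si-METTL3, so the shares overlapped at si-NC replicate 2.

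**Figure D4:**
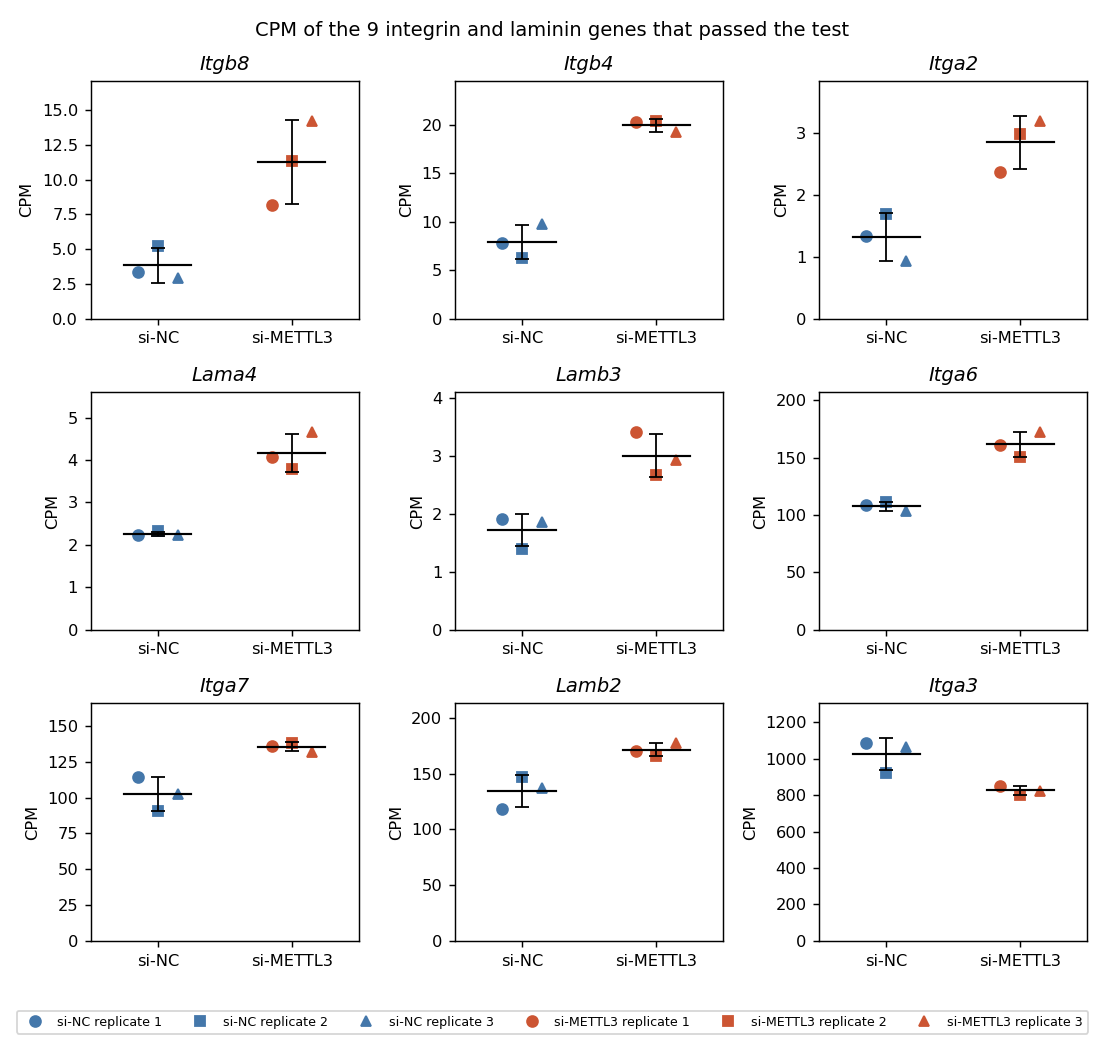
CPM of the 9 members that passed in each library, with the group mean as a line and the SD of 3 libraries as bars, each panel on its own linear axis from 0. In every panel the groups do not overlap, with si-METTL3 higher in 8 panels and lower for Itga3 (mean 826 against 1024).

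The abundant members that did not pass were as follows. Itgb1, the common beta subunit, was at 346, 346 and 301 CPM under si-NC and 397, 383 and 435 under si-METTL3. The groups did not overlap, and at a log2 fold change of 0.29 it missed the threshold (SE 0.084, adjusted p = 0.0526, edgeR). It passed without si-NC replicate 2 (0.0279). Itgb7 was at 151, 124 and 149.7 CPM against 151, 128 and 124, with full overlap and a log2 fold change of -0.076 (SE 0.11). Itga5, the fibronectin receptor alpha, was at 163, 135 and 159.9 CPM against 145, 141 and 142, with overlap and a log2 fold change of -0.097 (SE 0.086).

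Of the laminins, Lama5 was at 1398, 1233 and 1334 CPM under si-NC and 1592, 1556 and 1536 under si-METTL3, without overlap. Its log2 fold change of 0.24 (SE 0.069) had an adjusted p of 0.0502 (edgeR), which was 0.0197 without si-NC replicate 2. Lamc1 was at 394, 345 and 382 CPM against 442, 432 and 435, also without overlap, at 0.22 (SE 0.070, adjusted p = 0.0644, edgeR). Lamb1 was at 228, 189.6 and 221 CPM against 210.1, 197 and 207, with overlap and a log2 fold change of -0.057 (SE 0.085). Lama5 made up 99.5% to 99.8% of the alpha-chain FPKM and Lamc1 95.8% to 96.8% of the gamma-chain FPKM in all 6 libraries. The Lamc3 share of the gamma-chain FPKM was 1.57%, 1.61% and 1.55% under si-NC and 1.03%, 0.981% and 0.769% under si-METTL3, without overlap.

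Of the remaining tested members, none passed. Their log2 fold changes were 2.12 for Itga1, 1.48 for Itga8, 1.18 for Itga9, 1.02 for Lama2, 0.31 for Itgax, 0.15 for Itga2b, 0.13 for Itgb5, 0.10 for Itgb2 and 0.043 for Itgam. They were -0.44 for Itga10, -0.46 for Itgae and -0.54 for Lamc3. Exons of Itga10 and Itga1 overlap those of coding genes on the same strand, by 1739 bases (Gm42957) and 685 bases (Gm49395). For Lamc3, a gamma chain, the libraries were at 4.99, 4.48 and 4.74 CPM against 3.66, 3.39 and 2.68, without overlap (adjusted p = 0.0616, edgeR). The members too low to test had few counts. Itga11 had 0 to 15 counts, Itga4 0 to 8, Itgad 0 to 2, Itgal 0 to 20 and Lama1 0 to 2.

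Gene length moves with these results. The tested members have a median coding length of 3504 bases, against 1422 over all tested genes, and long genes were relatively higher under si-METTL3 and in si-NC replicate 2. With a correction for length in each library, 7 members passed, against 16.9% of all tested genes, and 6 of the 7 were among the 9. Itgb8 (log2 fold change 1.28), Itgb4 (1.09), Itga2 (0.86), Lama4 (0.64) and Itga6 (0.44) were higher, and Itga3 (-0.40) and Lamc3 (-0.78) were lower. Itga7 (adjusted p = 0.183, edgeR), Lamb2 (0.201) and Lamb3 (0.096) no longer passed, and Lama5 and Lamc1 turned to -0.043 and -0.066. The split of called members went from 8 higher and 1 lower to 5 and 2, and the members' median log2 fold change from 0.30 to 0.18.

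The counts and the FPKM values of a gene did not always move together. Dividing one by the other gives the length by which the authors' counting scaled the gene in each library. That implied length was within 1.014 times across libraries for Itga5, Itga7, Itgb1, Lamb1 and Lamc1. It varied by up to 1.78 times for Itga2b, 1.499 for Itgb2, 1.34 for Itgav, 1.31 for Lama5, 1.28 for Itgb4 and 1.27 for Lamb2. For Lamb2 it was 5946, 4794 and 5632 bases under si-NC and 5235, 4674 and 4869 under si-METTL3. On the log2(FPKM + 1) scale Lamb2 had a difference of 0.50 with an adjusted p of 0.0572 (limma), and Lama5 one of 0.10 (0.49). Itgb4 and Itga6 passed on that scale as well, at 0.91 (0.00562) and 0.58 (0.00642). Itga3 did not, at -0.26 (0.0539), so no member was called lower there, and its FPKM shares above rest on that scale.

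A further 7 members followed the libraries that carried lung and blood genes. Itga1, Itga4, Itga8, Itga9, Itgal, Lama2 and Lama3 had a CPM in si-NC replicate 3 and in every si-METTL3 library of at least 2 times the higher of si-NC replicates 1 and 2. They were singled out after their values were seen, and 2.3% of the 17667 listed genes with a count had this pattern. For the collagen receptor alpha Itga1 the counts were 4, 6 and 36 under si-NC and 55, 52 and 43 under si-METTL3. For the epithelial laminin chain Lama3 they were 8, 9 and 43 against 57, 34 and 40. For Itga8, a receptor alpha known from kidney and smooth muscle, they were 3, 1 and 22 against 19, 21 and 14. Over all libraries none of the 7 passed with edgeR. Itga1 did pass with DESeq2 (adjusted p = 0.0195) and with limma on log2(FPKM + 0.1) (adjusted p = 0.0465). Without si-NC replicate 3 the log2 fold changes were 3.58 for Itga1, 3.39 for both Itga8 and Itgal, 2.66 for Itga9, 2.60 for Lama3 and 2.23 for Lama2, and Itga4 was too low to fit. Itga1, Itga8 and Lama3 were then among the 7 called members and the others were not. The values of all 6 libraries chose these genes, so higher levels under si-METTL3 without si-NC replicate 3 were fixed in advance. The fold changes and calls without that library are a description, not a test. The part of RNA from other tissues in these values was not tested.

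**Figure D5:**
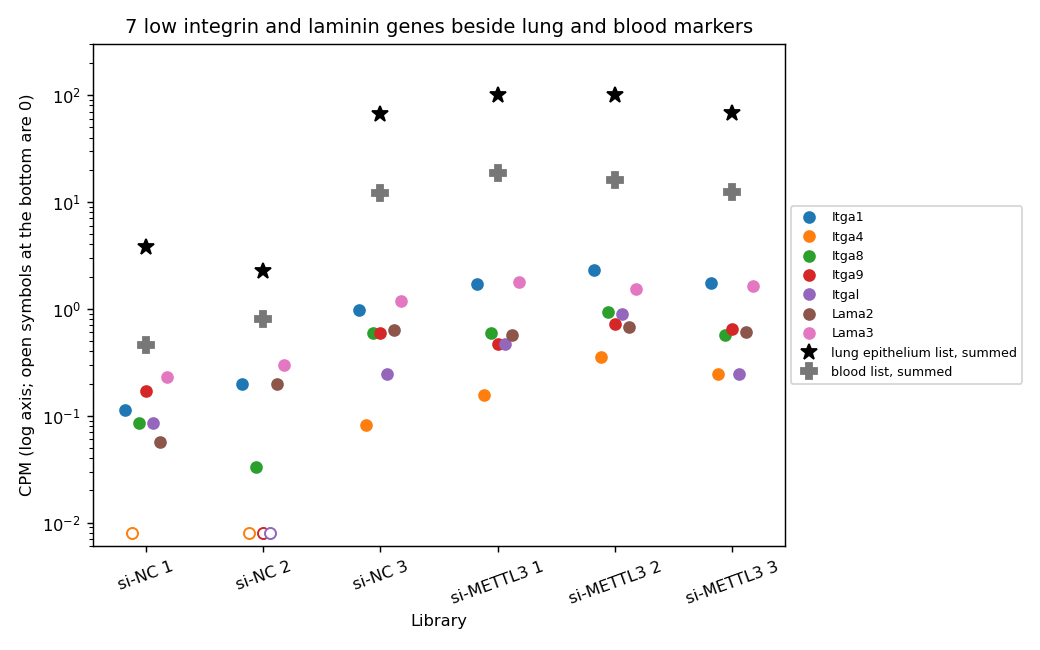
CPM on a log axis, per library, of the 7 members that share a pattern with the lung genes, beside the summed CPM of the 13 lung epithelium and 5 blood markers, with values of 0 as open symbols at the bottom. The members lie low in si-NC replicates 1 and 2, and si-NC replicate 3 lies nearer the si-METTL3 libraries, as for the lung genes (66.1 against 67.7 to 100.2).

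Noncoding transcripts of member genes are listed in the deposited lncRNA table. There were 52, of 18 of the genes, of which 24 had no count in any library and 6 could be tested. None passed, against 0.733% of 5728 transcripts tested in that table (edgeR), and 3 had an unadjusted p under 0.05. Itga6-203 was at 192, 186 and 219 CPM of that table under si-NC and 290.2, 278 and 306 under si-METTL3, without overlap. Its log2 fold change of 0.55 (adjusted p = 0.127) is close to the 0.59 of the Itga6 mRNA counts. The transcript lies within Itga6 on the same strand and ends at the same base, so both values may rest on the same reads. The others were Itga2b-209 at 1.46 (0.188) and Itgav-209 at 0.61 (0.261), followed by Itga2b-204 at 0.76, Itgb4-209 at 0.69 and a noncoding Lama5 transcript at -0.29.

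The partners of integrins and laminins moved in both directions. Of 24 tested cytoplasmic adaptors and kinases (of 25 listed), 7 passed, 2 higher and 5 lower, against 18.9% of all tested genes (8.67% higher and 10.2% lower). The count was 10 without si-NC replicate 2 and 3 without si-NC replicate 3. Leaving out si-METTL3 replicate 1 gave 2, and leaving out any other library gave 1. Of the 6 with the largest change, the talin and actin binding protein Vcl (log2 fold change 0.29) and Lims2 (1.56, at under 1 CPM) were higher. Lower were the scaffold Bcar1 (-0.50), the focal adhesion protein Zyx (-0.47), the integrin activator Fermt3 (-0.57) and the actin crosslinker Actn1 (-0.35). The list's median log2 fold change was 0.041, and of the 7 only Bcar1 passed without any 1 library (adjusted p up to 0.0496, edgeR). Without si-NC replicate 1 or si-METTL3 replicate 2 or 3, Vcl, Zyx, Fermt3 and Actn1 all missed the threshold, at adjusted p of 0.0556 to 0.146, and Lims2 missed it without any 1 library. Vcl and Fermt3 also missed it without si-NC replicate 3 or si-METTL3 replicate 1 (0.0642 to 0.0926), Actn1 without si-METTL3 replicate 1 (0.0503), and Vcl with the length correction.

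Of 18 basement membrane partners and other laminin receptors, 3 passed, and 1 to 5 passed with a library left out. Agrn, a heparan sulfate proteoglycan that binds laminin, fell from 155 ± 16.0 to 86.1 ± 7.78 CPM (SD, n = 3 each), a log2 fold change of -0.84 (adjusted p = 0.00376, edgeR) that held without any 1 library. Ntn4, a netrin that binds laminin gamma chains, rose by 0.69 and the syndecan Sdc1 by 0.35, on the log2 scale. Both missed the threshold without si-NC replicate 1 or si-METTL3 replicate 2 or 3, at adjusted p of 0.0542 to 0.117 (edgeR). Sdc1 also missed it without si-NC replicate 3 (0.074) or si-METTL3 replicate 1 (0.119), and with the length correction. The collagen IV chains, nidogens and perlecan did not pass. Of these, Col4a3 (0, 0 and 35 counts under si-NC, 27, 32 and 10 under si-METTL3) and Col4a4 (0, 0 and 15 against 18, 16 and 16) had the pattern of the lung and blood genes. The list's share of 16.7% compares with 18.9% for all tested genes. Its median log2 fold change was 0.23, against 0.030 over all tested genes. With the length correction the medians were 0.028 and 0.0065, and 11 of the list's genes were above 0 and 7 below, instead of 15 and 3.

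Of 20 tested integrin ligands (of 22 listed), 10 passed, 4 higher and 6 lower, against 18.9% of all tested genes. The count was 6 to 11 with a library left out. Among the 6 with the largest change, lower were the collagen Col3a1 (-0.87), the matricellular proteins Ccn1 (-0.83) and Ccn2 (-0.80), and Icam1 (-0.77), the ligand of leukocyte integrins. Higher were the osteopontin gene Spp1 (1.16), from 57.4 ± 11.4 to 128 ± 24.8 CPM (SD, n = 3 each), and Tgfb2 (0.84). Binding of the listed genes' products to integrins was not tested. Of these 6, Icam1 alone missed the threshold with a library left out, namely si-NC replicate 1 (adjusted p = 0.0697, edgeR), si-METTL3 replicate 2 (0.0728) or si-METTL3 replicate 3 (0.0668). Postn, which did not pass, had the pattern of the lung and blood genes (2, 2 and 27 counts under si-NC, 30, 26 and 13 under si-METTL3). The median log2 fold change of the integrin ligand list was 0.029. Of 11 tetraspanins and other lateral partners, 2 passed, both lower, a share of 18.2% against 18.9% of all tested genes. The count was 6, all lower, without si-NC replicate 2, when 36.8% of all tested genes were called. It was 2 without si-NC replicate 3 and 1 without any other library, and 4 with the length correction, 2 of them higher. The amino acid transporter chain Slc3a2, which binds integrin beta tails, was lower at -0.97, and the urokinase receptor Plaur at -0.44. Plaur passed without si-NC replicate 2 or 3, and with any other library left out its adjusted p was 0.0551 to 0.0888 (edgeR). No tetraspanin passed over all 6 libraries, and the list's median was -0.11, or -0.018 with the length correction.

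In the authors' deposited table of comparisons, 9 of the 37 members have an adjusted p under 0.05, against 11.9% of all 22298 listed genes. Only 17667 of the listed genes had a count, so the 11.9% is lowered by empty rows and is unlike the 18.9% of tested genes. Of these 9 in the authors' deposited table, 8 are also called here, and the ninth is Itga1. In the authors' deposited table Itga6 has a log2 fold change of 0.60, Itga3 one of -0.26 and Itga1 one of 2.10.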

How the data were processed

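Total RNA of 6 GC-1spg libraries (3 si-NC, 3 si-METTL3, grouped by title) was measured. The authors deposited, per the file headers, counts and FPKM values per gene or transcript and library, and a comparison with log2 fold changes, p-values and adjusted p-values. The tools were RSEM, StringTie, Bowtie2 and fastp and the build was mm9, per the submitters' processing notes, which give no version or role. Strand use and the treatment of reads shared between genes are not given in the sources used here.

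Deposited counts were tested with edgeR 4.0.16 (R 4.3.3): filterByExpr, TMM, quasi-likelihood test, and Benjamini-Hochberg adjustment over all 13082 genes tested, threshold 0.05. SE is the log2 fold change over the square root of F. CPM used effective library sizes. The lncRNA table was tested separately. Alternatives were limma 3.58.1 on log2(FPKM + 1) and log2(FPKM + 0.1) of the deposited FPKM values, DESeq2 1.42.0, its size factors, no low-count filter, a replicate block, each library left out, and a length correction, in which the lowess trend of each library's deviation on the implied length entered as an offset. A fold change on log2(FPKM + pseudocount) understates that of low genes. The script was tested on simulated data. Sequences and coordinates are from the GENCODE M21 annotation and transcripts (GRCm38), not from the authors' build, and were joined to the table by gene ID.

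Members, pathway lists and markers were chosen with earlier results of these data known. All members are named except 1, which enters the counts but is not reported here. Those called, and the 3 most expressed integrins and 3 most expressed laminins not called, have every library's value, and of each pathway list the called genes are named, at most the 6 largest. The TGF-beta genes named beside Itgb8 are an exception, chosen after their values were seen. Of the 10 marker lists, those with calls were germ line and spermatogonia (4 of 12 genes tested, 1 called) and epithelium (4 of 7, 1 called). Smooth muscle and fibroblast (7 of 8, 3 called) and Sertoli (4 of 5, 2 called) had calls too. With 0 called were macrophage and leukocyte (8 of 12 tested), platelet (1 of 6), endothelial (7 of 8), lung epithelium (12 of 13) and blood (4 of 5). Skeletal muscle had 0 of 4 tested. The share over all tested genes was 18.9%.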

Additional observations from a re-analysis of the deposited data

How the results depend on the processing

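The count of called members stayed within 1.5 times the 9 reported under DESeq2 (10), its size factors (10), no low-count filter (8), limma on FPKM with a pseudocount of 1 (8) or 0.1 (9) and the length correction (7). The shares of all tested genes were, in that order, 20.3%, 20.3%, 12.7%, 18.3%, 17.7% and 16.9%. The members called were not the same ones throughout. Of the laminin betas, 2 passed in the main fit, 1 with DESeq2 or without the filter, and 0 with limma. Of the integrin alphas, 4 passed in the main fit and 6 with DESeq2. With each library left out in turn, it ranged from 2 to 14, the count over all genes from 665 to 4917, that over the adaptor, basement membrane and ligand lists (20 called) from 8 to 26 and that over the tetraspanin and lateral list (2 called) from 1 to 6. Whether the replicate numbers pair the libraries is not known. Correlations of deviations from the group means were 0.025, 0.17 and -0.26 for same-numbered libraries and -0.30 to 0.27 for the others. Deviations from a mean of 3 libraries depend on one another, so these correlations cannot decide it. With the replicate block, 1273 genes, 3 members (Itga6, Itgb4 and Itgb8), 11 genes of the first 3 lists and 1 of the last passed. That was 9.73% of all tested genes and 9.38% of the tested members. Directions turned only for members that had not passed. The length correction gave -0.043 for Lama5, -0.066 for Lamc1 and -0.14 for Itgam. With each library left out in turn, the log2 fold change ranged from -0.059 to 0.95 for Itgax, -0.17 to 0.38 for Itgb2, -0.073 to 1.00 for Itgb3, -0.43 to 0.14 for Itgb6 and -0.27 to 0.24 for Itgam. In an alternative chosen after seeing the data, the transcript Itgb4-209 ranged from -0.32 to 1.21. The cause was not tested. The 5 members that were not tested had at most 20 counts in any library, which gives no usable precision on a difference.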
